A study of Rattus norvegicus with 6 samples.

Results

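Hmox1, Nqo1, Sod1, Sod2 and Cat encode enzymes that limit oxidative damage, and their transcripts were measured in rat vascular smooth muscle cells, which form the contractile layer of blood vessels. The set holds 5 genes, taken by Ensembl identifier from the 32883 genes of the count table: ENSRNOG00000014117 (Hmox1), ENSRNOG00000012772 (Nqo1), ENSRNOG00000002115 (Sod1), ENSRNOG00000019048 (Sod2) and ENSRNOG00000008364 (Cat). The symbols come from the definition of the set, since the reference table used here pairs 0 Ensembl identifiers with a symbol. All 5 passed the filter on low counts, which left 12044 genes. The study compared 2 groups of 3 samples. The sg-MIAT samples, whose genotype label is MIAT overexpression, were given a guide RNA that directs a CRISPR-dCas9 system to raise the cells' own MIAT, a long non-coding RNA. The sg-U6 samples, labelled WT, carried a negative control guide. dCas9 is a Cas9 that binds DNA without cutting it. The labels used here state neither the activator, the rat strain, sex and age, nor whether each sample is a culture or animal of its own. The p-values therefore reflect the spread among these samples alone, and that spread may be technical.

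Superoxide dismutases and catalase act in sequence. Superoxide, which leaks from mitochondria and is made by NADPH oxidases in the vessel wall, is converted to hydrogen peroxide by superoxide dismutases, with SOD1 acting mainly in the cytosol and SOD2 in the mitochondrial matrix. Catalase, the product of Cat, breaks hydrogen peroxide down to water and oxygen, mostly in peroxisomes. HMOX1 degrades heme to biliverdin, iron and carbon monoxide, NQO1 reduces quinones without releasing semiquinone radicals, and both genes are classical targets of the transcription factor NRF2, which binds antioxidant response elements. Sod2 is also known as a target of NF-kB.

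RefSeq promoter sequences (assembly GRCr8, which is not the Rnor_6.0 build named in the submitters' processing notes) were held for 4 of the 5 genes, all but Hmox1. The 250 bases before the gene start are printed for Sod1 and Sod2, whose levels were highest in the same sample, and for Nqo1, which had the largest fitted difference between the guides. Capitals mark matches on either strand to 3 motifs: the core of the antioxidant response element (TGACNNNGC), a GC box (GGGCGG) and a TATA box (TATAAA).
Sod1, chr11:42942573-42942822, plus strand: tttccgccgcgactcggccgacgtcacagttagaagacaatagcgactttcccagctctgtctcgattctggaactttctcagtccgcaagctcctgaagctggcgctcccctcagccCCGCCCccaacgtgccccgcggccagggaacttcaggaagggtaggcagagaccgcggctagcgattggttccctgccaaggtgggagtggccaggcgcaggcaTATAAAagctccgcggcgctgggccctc
Sod2, chr1:50050169-50050418, minus strand: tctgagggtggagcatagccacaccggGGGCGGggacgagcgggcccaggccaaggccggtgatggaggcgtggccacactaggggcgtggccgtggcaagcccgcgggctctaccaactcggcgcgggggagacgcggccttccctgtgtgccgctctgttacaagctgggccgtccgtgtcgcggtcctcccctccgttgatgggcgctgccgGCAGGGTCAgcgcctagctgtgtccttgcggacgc
Nqo1, chr19:52220268-52220517, minus strand: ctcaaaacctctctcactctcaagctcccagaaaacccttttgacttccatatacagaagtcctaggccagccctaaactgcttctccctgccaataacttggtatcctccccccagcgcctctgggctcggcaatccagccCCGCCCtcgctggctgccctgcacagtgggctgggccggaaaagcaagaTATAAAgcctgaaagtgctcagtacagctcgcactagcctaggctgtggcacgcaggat
The antioxidant response element core matched once among the 4 promoters, in Sod2, on the strand opposite to the one printed, starting at base -35 from the gene start. It is found in 10.1% of the 33469 promoter windows of this length. Sod1 and Nqo1 each had 1 GC box and 1 TATA match, the latter at -28 in Sod1 and -59 in Nqo1, and Sod2 had 1 GC box and no TATA match. GC boxes were found in 30.5% of all windows and TATA matches in 12.9%. The Sod2 window was the richest of the 4 in G and C (71.6%, against 63.2% in Sod1, 58.8% in Cat and 56.4% in Nqo1). Cat had no match to the 3 motifs. A match describes letters, not binding, and distal elements lie outside these windows.

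Depth and sample structure bear on every value that follows. Total counts ran from 13128977 to 18257865 per sample, and the 5 genes had between 595 counts (Cat in sg-MIAT 1) and 20640 counts (Nqo1 in sg-MIAT 3), so relative counting error was largest for Cat and smallest for Nqo1. On the first principal component, which held 65.8% of the variance, sg-MIAT 1 and sg-U6 1 stood apart, at -52.5 and -61.9. The other 4 samples ran from 9.21 to 66.7, with sg-U6 3 at the far end. On the second, which held 17.3%, sg-MIAT 1 and sg-U6 1 lay on opposite sides (-27.2 and 33.1), so they were not alike throughout. Because of the first component, results are also given without the samples numbered 1. Markers of smooth muscle and other cells, other antioxidant genes and Miat itself could not be matched to identifiers and were not analysed here, so neither the cell type nor the activation of MIAT was checked. In bulk RNA, fewer cells of one type and less RNA per cell cannot be told apart.

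For none of the 5 transcripts did the difference between the guides pass the test against the spread of the samples. Cat, Nqo1, Sod2 and Sod1 had lower fitted levels in sg-MIAT and Hmox1 a slightly higher one, with log2 fold changes (sg-MIAT over sg-U6) from -0.44 to 0.08. With edgeR's quasi-likelihood F test, adjusted by Benjamini-Hochberg over all 12044 genes, 0 of the 5 passed 0.05, and so did 0 genes of the whole table (0%), with the replicate number as a block as well. At an unadjusted p under 0.05 there were 477 genes (3.96%), and none of the 5 was among them. DESeq2 called 60 of 13535 genes (0.443%), and 130 of 12906 (1.01%) with the replicate number as a block. None of the 5 was called by either fit. The groups did not overlap for 1089 of the 12044 genes (9.04%) and overlapped for each of the 5. The median fitted log2 fold change was -0.27 over the 5 and -0.03 over all tested genes, and 54.6% of all genes had a value below 0. The median over the 5 depended on the measure. Differences of mean log2 CPM were 0.07 for Hmox1, -0.56 for Nqo1, 0.03 for Sod1, -0.03 for Sod2 and -0.28 for Cat. The middle value of these was that of Sod2. Without both samples numbered 1, the edgeR log2 fold changes were 0.33 for Hmox1, -0.21 for Nqo1, 0.33 for Sod1, 0.70 for Sod2 and -0.26 for Cat, and 0 of the 5 were called.

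**Figure D1:**
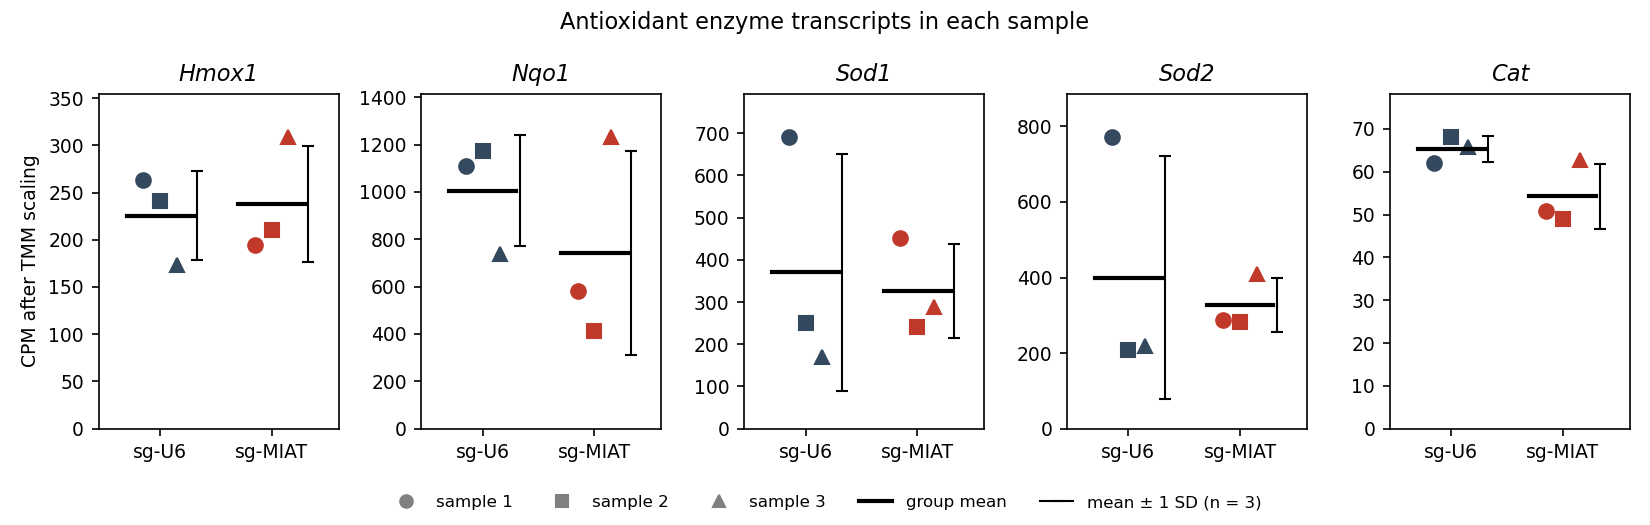
Level of each transcript (vertical axis, TMM-scaled CPM, a separate scale per gene) in the 3 sg-U6 and 3 sg-MIAT samples, with marker shapes for the sample number, a thick bar for the group mean and a thin bar for 1 SD either side. Sod1 and Sod2 are highest in sg-U6 1 (691 and 771), Nqo1 is lowest in sg-MIAT 1 and 2, and Cat varies least.

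Hmox1, the stress-inducible heme oxygenase, stood at 194, 211 and 309 CPM (counts scaled to a common library size with TMM factors) in sg-MIAT 1, 2 and 3. In sg-U6 1, 2 and 3 it stood at 263, 242 and 173 CPM. The lowest value was from sg-U6 and the highest from sg-MIAT, and the groups overlapped over most of their range. The sg-MIAT mean was 238 ± 61.8 CPM and the sg-U6 mean 226 ± 47.0 CPM (SD, n = 3 each). The edgeR log2 fold change was 0.08 ± 0.25 (SE), adjusted p = 0.9995, and its 95% interval ran from a level 0.692 times to one 1.61 times that of sg-U6. An exact two-sided permutation test of log2 CPM gave p = 0.9. The sign of this small difference turned when sg-MIAT 3 was left out (-0.15) or sg-U6 3 (-0.08). It was also negative on the deposited CPM without TMM scaling in limma (-0.0066 with a pseudocount of 1). Hmox1 varied moderately over the 6 samples, with an SD of log2 CPM of 0.30 against a median of 0.35 over all genes.

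Nqo1, the quinone reductase, had the widest difference between group means. It stood at 583 and 413 CPM in sg-MIAT 1 and 2 but at 1231 CPM in sg-MIAT 3, and at 1108, 1173 and 737 CPM in sg-U6 1, 2 and 3. The 2 lowest samples were therefore of sg-MIAT, and so was the highest. Its mean was 742 ± 432 CPM with the MIAT guide and 1006 ± 235 CPM with the control guide (SD, n = 3), a fitted 1.35-fold lower level in sg-MIAT. The log2 fold change was -0.44 ± 0.43 (SE), adjusted p = 0.9995 in edgeR, and the exact permutation p was 0.4. The 95% interval, 0.358 to 1.52 times the sg-U6 level, reaches from 2.79-fold lower to higher levels in sg-MIAT. Its size depended on both sg-MIAT 3 and sg-MIAT 2. Without sg-MIAT 3 the log2 fold change was -1.01, with an adjusted edgeR p of 0.721 and an adjusted DESeq2 p of 0.240. Without sg-MIAT 2 it was -0.14. In sg-MIAT 3, Nqo1 lay 2.51-fold above the geometric mean of the other sg-MIAT samples. That deviation was at the 98.8th percentile of all tested genes in that sample. In sg-MIAT 2 it lay 2.05-fold below the geometric mean of the other sg-MIAT samples, at percentile 1.2.

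The ratio of Hmox1 to Nqo1 counts compares these NRF2 targets within a library and does not depend on scaling. It was 0.334, 0.510 and 0.251 in sg-MIAT 1, 2 and 3, against 0.237, 0.206 and 0.235 in sg-U6 1, 2 and 3. Every sg-MIAT sample lay above every sg-U6 sample, although sg-MIAT 3 did so narrowly. Means were 0.365 ± 0.132 and 0.226 ± 0.0173 (SD, n = 3). The difference of 0.63 on the log2 scale had an exact two-sided permutation p of 0.1, which is the smallest that 3 samples against 3 can give, and 0.2 after Benjamini-Hochberg adjustment over the 2 ratios tested, so it did not pass the threshold. The ratios, like the genes, were chosen with earlier results of these data known. The difference ranged from 0.36 without sg-MIAT 2 to 0.87 without sg-MIAT 3, and was 0.70 without both samples numbered 1. Of single genes, 9.04% had groups that did not overlap. That share is of single-gene levels, and the share among ratios of gene pairs was not computed.

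**Figure D2:**
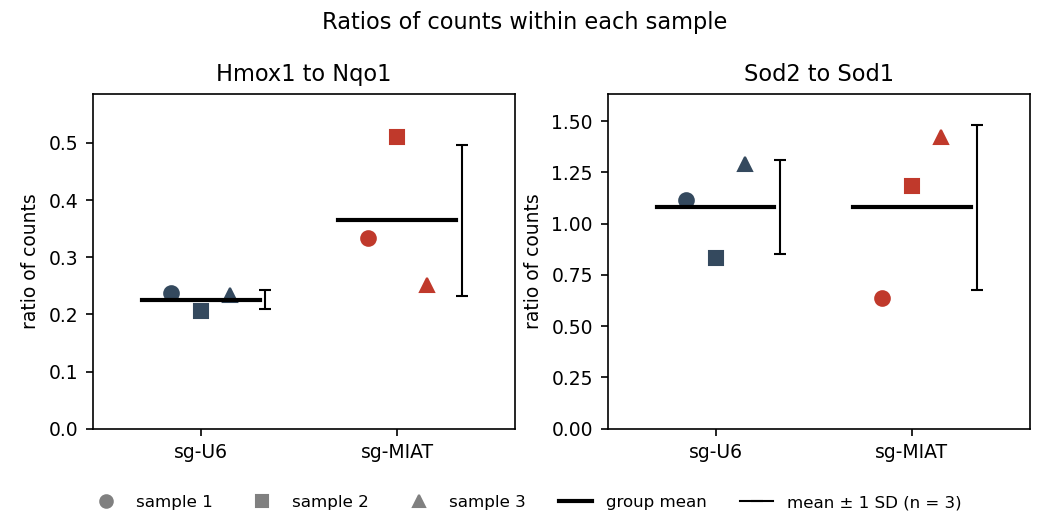
Ratio of counts within each sample (vertical axis, no unit) for Hmox1 to Nqo1 and for Sod2 to Sod1, in 3 sg-U6 and 3 sg-MIAT samples, with marker shapes for the sample number, a thick bar for the mean and a thin bar for 1 SD either side. The Hmox1 to Nqo1 ratio is 0.251 to 0.510 in sg-MIAT and 0.206 to 0.237 in sg-U6, while the Sod2 to Sod1 ratios of the groups overlap.

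Sod1, the cytosolic copper-zinc dismutase, varied more with the sample number than with the guide. In the samples numbered 1 it reached 453 CPM (sg-MIAT) and 691 CPM (sg-U6). Samples 2 and 3 held 239.8 and 288 CPM with the MIAT guide, and 249.7 and 170.5 CPM with the control guide. Both samples numbered 1 lay above the other 4, and the highest and lowest of all were sg-U6 samples, 4.05-fold apart. The sg-MIAT mean was 327 ± 112 CPM and the sg-U6 mean 370.2 ± 280.2 CPM (SD, n = 3). The edgeR log2 fold change was -0.18 ± 0.55 (SE), with adjusted p = 0.9995 and an exact permutation p of 1. The difference of mean log2 CPM had the other sign (0.03), so no direction can be given. Without sg-U6 1 the log2 fold change was 0.64 with an edgeR adjusted p of 0.412, and without both samples numbered 1 it was 0.33 with an edgeR adjusted p of 0.682.

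Sod2, the mitochondrial manganese dismutase, was high in 1 sample. It stood at 771 CPM in sg-U6 1, against 208 and 220.0 CPM in sg-U6 2 and 3. The sg-MIAT samples held 288, 284 and 409.8 CPM, all above sg-U6 2 and 3 and below sg-U6 1. Averages were 327 ± 71.6 CPM for the MIAT guide and 399.9 ± 322 CPM for the control guide (SD, n = 3). The log2 fold change was -0.29 ± 0.54 (SE), adjusted p = 0.9995 in edgeR, and the exact permutation p was 1. The permutation test used the difference of mean log2 CPM, which was only -0.026, so no direction can be given. Of the single samples left out, sg-U6 1 was the only one whose omission turned the sign of the edgeR log2 fold change. Without it the log2 fold change was 0.62, with an edgeR adjusted p of 0.402 and a DESeq2 adjusted p of 0.230. Without both samples numbered 1 it was 0.70 with an edgeR adjusted p of 0.612. RefSeq lists a pseudogene, Sod2-ps1, and how reads shared with it were counted is not given in the sources used here.

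In sg-U6 1 both dismutases lay above the geometric mean of the other control samples, Sod1 by 3.34-fold and Sod2 by 3.60-fold. Among all tested genes these deviations lay at the 97.9th and 98.2nd percentile of that sample, where the median gene deviated by -0.02 on the log2 scale. The other enzymes did not share it: Hmox1 was 1.29-fold and Nqo1 1.19-fold the mean of the other controls, and Cat 0.929-fold. sg-MIAT 1, the other sample that stood apart on the first principal component, was 1.72-fold above its group for Sod1 but 0.846-fold for Sod2. What sets these samples apart was not tested. The Sod2 to Sod1 ratio was 0.637, 1.18 and 1.42 in sg-MIAT 1, 2 and 3, and sg-U6 1, 2 and 3 had 1.12, 0.834 and 1.29. Both groups averaged 1.08 (SD 0.402 in sg-MIAT and 0.230 in sg-U6, n = 3 each), and the exact permutation p was 0.9.

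Cat, encoding catalase, was the least variable of the 5 and had the narrowest interval. It stood at 50.9, 49.0 and 62.8 CPM in sg-MIAT 1, 2 and 3, while sg-U6 1, 2 and 3 had 62.1, 68.1 and 65.8 CPM. The groups overlapped only by sg-MIAT 3, which lay just above sg-U6 1. It averaged 54.2 ± 7.49 CPM with the MIAT guide and 65.3 ± 3.01 CPM with the control guide (SD, n = 3), a fitted 1.20-fold lower level in sg-MIAT. The log2 fold change was -0.27 ± 0.15 (SE), with an unadjusted edgeR p of 0.127, an adjusted edgeR p of 0.9995 and an exact permutation p of 0.2. The 95% interval ran from 0.644 to 1.07 times the sg-U6 level. Taking equal numbers as pairs, which is an assumption, Cat was lower in sg-MIAT in all 3, by 0.29, 0.47 and 0.07 on the log2 scale. The share of all genes with the same sign in all 3 pairs was not computed. Its fold change was below 0 in all 25 alternative fits, from -0.38 to -0.19, none of which called it. These fits reuse the same samples, so their shared sign is no added support. Hmox1, Nqo1 and Sod1 were lower in sg-MIAT in pairs 1 and 2 and higher in pair 3, and Sod2 was lower only in pair 1.

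**Figure D3:**
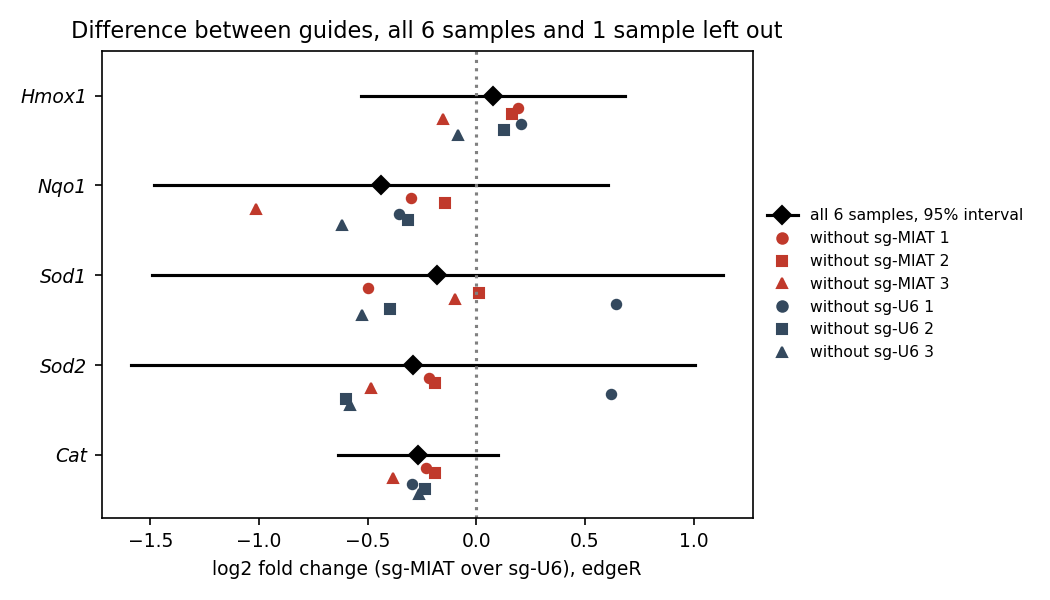
Log2 fold change of sg-MIAT over sg-U6 (horizontal axis, edgeR) for each enzyme with all 6 samples (diamond, with its 95% interval as a line) and with 1 sample left out (small markers). All intervals include 0, and leaving out sg-U6 1 moves Sod1 and Sod2 to 0.64 and 0.62.

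The 5 enzymes did not follow a single pattern over the samples. The guide took 57.8% of the variance of log2 CPM of Cat and 23.3% of that of Nqo1, but 1.5% for Hmox1 and under 1% for Sod1 (0.052%) and Sod2 (0.042%), against a median of 9.58% over all tested genes. The sample number took 81.9% of the variance of Sod1, 38.7% for Sod2, 21.1% for Cat, 10.03% for Nqo1 and 0.30% for Hmox1, against a median of 60.1%. The sample number has more degrees of freedom than the guide, so its share tends to be larger even where neither has an effect. With 5 degrees of freedom in all, such shares are descriptions only. Likeness was measured by Pearson's r of log2 CPM over the 6 samples. The closest pair was Nqo1 and Cat (r = 0.847), followed by Sod1 and Sod2 (r = 0.814) and Hmox1 and Nqo1 (r = 0.693). None of these stood at the top of the transcriptome: of 12043 other genes, Cat ranked 206 in closeness to Nqo1 and Nqo1 ranked 383 in closeness to Cat. Sod1 ranked 676 in closeness to Sod2, and Sod2 ranked 2563 in closeness to Sod1. Cat had an r of -0.20 with Sod1 and -0.01 with Sod2. The order of the pairs depended on the measure. Spearman's rank correlation was 0.771 for Sod1 with Sod2, and 0.714 for Nqo1 with Cat and for Nqo1 with Hmox1. It was -0.26 for Cat with Sod1 and -0.49 for Cat with Sod2. With 6 samples, of which those numbered 1 stood apart on the first principal component, no test was attached to these values.

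**Figure D4:**
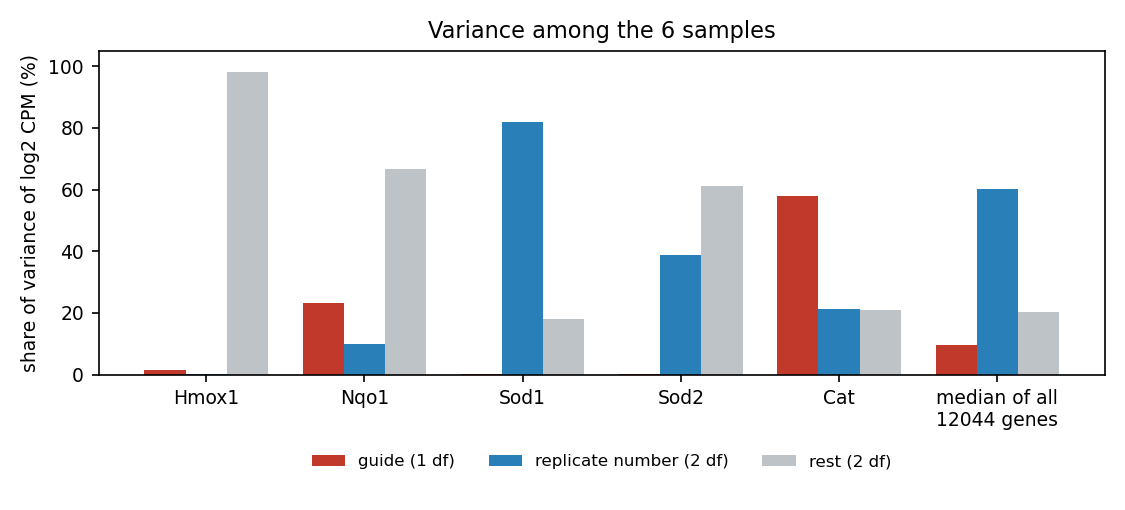
Share of the variance of log2 CPM among the 6 samples (vertical axis, percent) taken by the guide, the replicate number and the rest, for each enzyme and as the median over all tested genes, taken separately for each component. Cat has the largest guide share (57.8%), Sod1 the largest number share (81.9%), and 98.2% of the variance of Hmox1 lies in the rest.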

How the data were processed

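Polyadenylated RNA of 6 rat vascular smooth muscle cell samples was sequenced with a strand-marking (dUTP) protocol on a DNBSEQ-T7 instrument, per the labels' protocols. HISAT2, DESeq2 and the build Rnor_6.0 appear in the submitters' processing notes. The read counter, the annotation release and the strand setting were not given in the sources used here. The authors deposited raw counts per Ensembl gene, 1 column per sample. A second deposited table, named for FPKM, holds CPM, as its values equal count over total for all but 5 of 32883 genes (relative tolerance 0.001). Multiplying by the total gave whole reads (within 0.01) for 99.985% of values above 0, and edgeR on those reads called 0 genes. CPM holds no gene length, so levels were not compared between genes.

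Counts were tested with edgeR 4.0.16 (R 4.3.3; quasi-likelihood F test, TMM, minimum count 10 and total 15, guide as the only term, Benjamini-Hochberg at 0.05). SEs are the absolute log2 fold change over the square root of F, and intervals use the total degrees of freedom. Group means and SDs are of TMM-scaled CPM, and 0.5 CPM was added before the log2 for principal components, deviations, variance shares and likeness. Ratios and single genes had exact permutation tests, which cannot go below 0.1. Alternatives were other scalings and filters, DESeq2 1.42.0, limma 3.58.1 (voom, or trend on log2 of CPM plus 1 or 0.1, at a mean CPM of at least 0.5), the replicate block and left-out samples. Code was tested on simulated data. The named genes are the 5 members. Members, ratios and lists were chosen with earlier results of these data known. The lists of other antioxidant genes and cell markers could not be matched to identifiers and were not analysed here. The labels number both groups 1 to 3, and within-group deviations of samples sharing a number correlated across genes at 0.741, 0.119 and 0.334 for numbers 1, 2 and 3. The labels used here do not say that the numbers mark pairs, and only number 1 correlated most closely with its own number. sg-MIAT 2 correlated more closely with sg-U6 3 (0.642), and sg-MIAT 3 slightly more closely with sg-U6 2 (0.340). Taking the numbers as pairs, for the block and the same-numbered comparisons, is therefore an assumption. No 2 libraries were duplicates.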

Additional observations from a re-analysis of the deposited data

How the results depend on the processing

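None of the 125 values of the 5 enzymes under alternatives passed 0.05. Nqo1 and Cat kept a negative sign in all 25 alternatives each. The alternatives reuse the same samples, so this constant sign is no measure of stability. The smallest adjusted p was 0.202 (Sod2 in DESeq2 without both samples numbered 1), and 0.402 in edgeR (Sod2 without sg-U6 1). Leaving out each sample in turn, in edgeR and DESeq2, moved the log2 fold change between -0.15 and 0.21 for Hmox1, between -0.52 and 0.65 for Sod1 and between -0.60 and 0.62 for Sod2. Sod1 also turned positive with limma-voom (0.037). With the replicate block, Sod1 was 0.028 in edgeR and 0.034 in DESeq2, and Sod2 was 0.0041 in DESeq2. The block changed no call of the 5. Hmox1 turned negative in limma-trend with a pseudocount of 1 (-0.0066) or 0.1 (-0.0068). Without both samples numbered 1, Sod1 was 0.33 in edgeR and 0.34 in DESeq2, Sod2 was 0.70 in both, and the log2 difference of the Sod2 to Sod1 ratio was 0.32. That difference was -0.06 in all samples and ran from -0.29 to 0.29 with 1 sample left out. The sign of the Hmox1 to Nqo1 difference could not turn in any of its 8 alternatives, since the groups do not overlap, and says nothing of stability. The sign-flip test with the replicate block gave 0.63 (exact p = 0.25, the smallest it can give). Over all genes, edgeR and limma called 0 under each alternative, left-out samples included, while DESeq2 called 60, 130 with the replicate block, 120 without both samples numbered 1, and 13 to 218 with 1 sample left out. The DESeq2 fits with samples left out, the reads recovered from CPM and the ratios without both samples numbered 1 were chosen after seeing the data. The cause of these changes was not tested. The 95% intervals over 3 samples a group were wide and reached in both directions. In sg-MIAT they ran from 3.01-fold lower to 2.01-fold higher levels for Sod2. For Sod1 they ran from 2.82-fold lower to 2.20-fold higher, and for Nqo1 from 2.79-fold lower to 1.52-fold higher.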
